A study of Homo sapiens with 9 samples.

Results

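The genes described are the human kinesin motor genes, taken as every gene entry whose Ensembl identifier is protein-coding in GENCODE release 29 under a symbol of KIF or KIFC followed by a digit. They number 43 of the 59107 gene entries in the expression tables. By textbook role, 14 were placed among the mitotic kinesins and 15 among the transport kinesins. Another 13 had other or mixed roles, in cilia, in Hedgehog signalling or in control of microtubule length. The remaining gene, KIF1BP, matched the naming rule but encodes a protein that binds kinesins and is not itself a motor.

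RNA sequencing was done on HK1, an established line of human nasopharyngeal carcinoma cells grown in medium with serum. The 9 libraries fell into 3 groups of 3. The si-E2F1 cells carried a small interfering RNA (siRNA) against E2F1, the si-E2F3 cells an siRNA against E2F3, and the Control cells a non-targeting siRNA, each at 100 nM and for 48 h. E2F1 and E2F3 are transcription factors that bind the promoters of cell cycle genes. All groups shared the cell line and the transfection, the labels do not say how many siRNA sequences were used per target, and nothing in them tells whether replicates were grown apart. P-values below therefore measure only the spread between these libraries, which may be technical.

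Kinesins are motor proteins that use ATP to walk along microtubules or to take microtubule ends apart. One set builds the mitotic spindle, moves chromosomes and organises the midzone where the cell divides, and its genes are expressed mainly from the late S phase to mitosis. Another set carries vesicles, organelles, mRNA and ciliary cargo through the cell at all stages of the cycle. In dividing cells many genes of the mitotic set are kept low in early G1 by the DREAM complex, whose MuvB core recognises a promoter element named CHR (cell cycle genes homology region), and they often also have CCAAT boxes, which the factor NF-Y binds.

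The promoter windows of 7 kinesins on which the results turn are printed here from RefSeq (GRCh38.p14), each 300 bases long from 250 bases before to 50 bases after the start of the gene, on the plus strand. They lie at chr6:33391573-33391872 for KIFC1, chr15:69414099-69414398 for KIF23, chrX:70289854-70290153 for KIF4A and chr10:92592880-92593179 for KIF11. The remaining windows are chr5:138178862-138179161 for KIF20A, chr20:32277401-32277700 for KIF3B and chr17:4997700-4997999 for KIF1C. The first 5 belong to mitotic kinesins and the last 2 to transport kinesins, and capitals mark every match to a CHR word or to CCAAT on either strand (ATTGG is CCAAT read from the other strand, and TTCAAA is the CHR word TTTGAA read from the other strand).
KIFC1: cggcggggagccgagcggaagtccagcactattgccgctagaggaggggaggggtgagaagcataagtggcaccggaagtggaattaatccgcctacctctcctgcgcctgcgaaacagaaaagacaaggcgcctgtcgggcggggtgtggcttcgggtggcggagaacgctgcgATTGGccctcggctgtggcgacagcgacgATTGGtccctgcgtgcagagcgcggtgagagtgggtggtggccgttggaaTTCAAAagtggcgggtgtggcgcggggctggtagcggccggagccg
KIF23: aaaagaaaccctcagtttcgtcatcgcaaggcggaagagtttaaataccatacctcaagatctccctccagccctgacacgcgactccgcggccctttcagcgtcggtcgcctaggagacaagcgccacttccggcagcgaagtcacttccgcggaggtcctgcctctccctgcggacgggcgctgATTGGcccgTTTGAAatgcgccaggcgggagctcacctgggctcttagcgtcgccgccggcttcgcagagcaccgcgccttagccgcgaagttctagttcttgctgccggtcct
KIF4A: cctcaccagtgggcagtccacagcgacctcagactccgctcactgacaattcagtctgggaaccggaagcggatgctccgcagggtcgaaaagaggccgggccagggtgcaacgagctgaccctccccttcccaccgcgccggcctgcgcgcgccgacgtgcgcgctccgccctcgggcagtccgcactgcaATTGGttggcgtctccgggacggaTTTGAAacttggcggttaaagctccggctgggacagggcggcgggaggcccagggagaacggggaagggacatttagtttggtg
KIF11: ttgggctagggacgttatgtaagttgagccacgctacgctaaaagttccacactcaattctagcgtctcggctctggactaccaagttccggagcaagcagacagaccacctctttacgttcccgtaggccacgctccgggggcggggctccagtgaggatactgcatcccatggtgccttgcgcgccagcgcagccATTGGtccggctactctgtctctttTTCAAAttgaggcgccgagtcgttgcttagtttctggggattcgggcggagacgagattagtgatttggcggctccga
KIF20A: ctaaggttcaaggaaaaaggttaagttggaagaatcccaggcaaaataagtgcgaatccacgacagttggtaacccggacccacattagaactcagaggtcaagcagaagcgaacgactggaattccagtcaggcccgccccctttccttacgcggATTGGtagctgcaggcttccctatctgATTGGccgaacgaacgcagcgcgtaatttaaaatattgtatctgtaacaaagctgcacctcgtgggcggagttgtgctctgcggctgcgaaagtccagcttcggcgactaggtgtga
KIF3B: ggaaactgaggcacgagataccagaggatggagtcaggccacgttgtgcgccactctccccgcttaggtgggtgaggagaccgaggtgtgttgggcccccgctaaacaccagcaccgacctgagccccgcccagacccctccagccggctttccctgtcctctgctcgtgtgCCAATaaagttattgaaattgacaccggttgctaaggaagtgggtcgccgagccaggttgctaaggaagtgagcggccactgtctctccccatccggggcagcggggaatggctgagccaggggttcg
KIF1C: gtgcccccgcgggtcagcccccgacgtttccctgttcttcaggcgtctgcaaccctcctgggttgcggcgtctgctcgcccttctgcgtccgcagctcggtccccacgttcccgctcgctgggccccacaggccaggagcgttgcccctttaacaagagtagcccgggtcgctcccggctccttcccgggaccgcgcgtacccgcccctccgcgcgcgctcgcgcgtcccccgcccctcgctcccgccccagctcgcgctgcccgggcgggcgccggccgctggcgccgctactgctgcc

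Of the 43 kinesin genes, 35 had a promoter window in this RefSeq table. The 8 without were KIF27, KIF21B, KIF26B, KIF19, KIFC3, KIFC2, KIF13B and KIF5A. A CHR word, searched as TTTGAA or TTCGAA on both strands, was found in the windows of 11 of 14 mitotic kinesins, 1 of 11 transport kinesins (KIF5B) and 1 of 9 other kinesins (KIF24). It was found in 16.6% of all 27305 gene windows of the same length. CCAAT was found in 11 of 14 mitotic, 3 of 11 transport and 3 of 9 other kinesin windows, against 35.7% of all windows. CHR and CCAAT together were found in 10 mitotic kinesin windows, in 1 transport and in 1 other, against 6.58% of all windows. E2F words, searched as TTTGGCGC, TTTGCCGC, TTTCGCGC and TTTCCCGC, matched in KIF15 and in KIF25, which was listed at 0 FPKM in every library, and in 3.33% of all windows. The first base of the CHR matches in mitotic kinesins lay between 55 bases before and 31 bases after the start. Among the mitotic kinesins tested below, KIF2C held no match to any of these words and KIF20A held 2 CCAAT matches and no CHR word. A match describes the letters of a window and is not evidence of binding, and a window without one lacks only these letters. Only 1 window per gene was searched, so any other start of a gene was not covered.

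**Figure D1:**
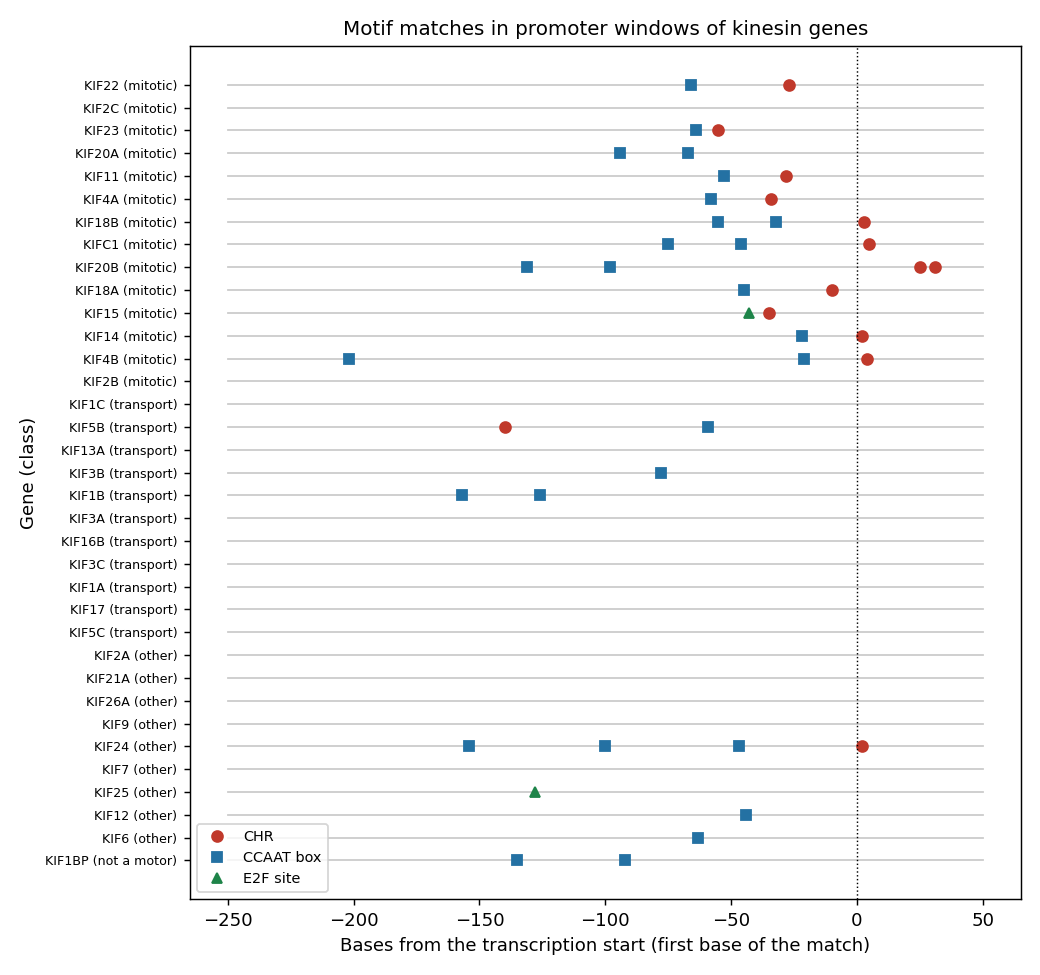
Matches to CHR, E2F and CCAAT words in the promoter windows of the 35 kinesin genes with a window, by class, plotted against the distance in bases from the RefSeq start. CHR words were found in 11 of 14 mitotic windows and in 1 of 11 transport windows.

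Expression was given as FPKM (fragments scaled to transcript length and to library size). A gene was tested where at least 3 of the 9 libraries reached 1 FPKM, which 13777 genes did, and the test was limma on log2(FPKM + 1) with Benjamini-Hochberg adjustment over all of them, two-sided. A gene is said to have risen or fallen where the adjusted p was under 0.05. Fold changes on this scale understate those of genes with low levels. Relative to the first Control library, the depth estimated from the steps between low values was 0.898 to 1.14 in si-E2F1 libraries, 0.978 to 0.993 in si-E2F3 libraries and 0.856 to 1.21 in Control libraries, while the number of reads is not given in the sources used here. E2F1 mRNA averaged 7.48 ± 0.41 FPKM in si-E2F1 cells, 21.7 ± 1.1 FPKM in si-E2F3 cells and 19.9 ± 0.3 FPKM in Control cells (SD, n = 3 each). E2F3 mRNA averaged 28.7 ± 0.8 FPKM in si-E2F1 cells, 11.4 ± 1.1 FPKM in si-E2F3 cells and 25.4 ± 1.5 FPKM in Control cells (SD, n = 3 each). Markers of squamous epithelium were high in all groups, with the 7 together at 941 to 1009 FPKM in si-E2F1 libraries, 855 to 940.3 FPKM in si-E2F3 libraries and 1449.5 to 1489 FPKM in Control libraries. PTPRC, a marker of leukocytes, and CD3E, a marker of T cells, stayed at or under 0.46 FPKM, while CD68, a macrophage marker that other cell types also express, had 16.8 to 19.7 FPKM over the 9 libraries. Of fibroblast markers, COL1A1 had 12.3 to 18.7 FPKM, while COL3A1 and PDGFRA stayed at or under 1.18 FPKM. Of neuron markers, TUBB3 had 22.7 to 37.2 FPKM and MAP2 4.13 to 7.25 FPKM, while SNAP25 and SYN1 stayed at or under 0.16 FPKM. The endothelial markers PECAM1, CDH5 and VWF stayed at or under 1.46 FPKM.

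Of the 43 members, 32 passed the filter (12 mitotic, 11 transport, 8 other and KIF1BP), and none of these passed it through 1 group alone. The highest value of the other 11 was 0.60 FPKM in any library. KIF2B, KIF6, KIF12 and KIF25 were listed at 0 in all 9 libraries. KIF4B, a near-identical copy of KIF4A, had 0.03 to 0.20 FPKM, and its reads cannot be told apart with certainty from those of KIF4A. The remaining 6 were KIF1A, KIF5A, KIF5C and KIF17, which carry cargo mainly in neurons, with KIF19, a ciliary kinesin, and KIF26B. Among tested members, mean levels in Control cells ran from 8.77 FPKM (KIF14) to 56.0 FPKM (KIF22) in the mitotic class, with a median of 23.6 FPKM. In the transport class they ran from 2.82 FPKM (KIF3C) to 28.4 FPKM (KIF1C), with a median of 15.2 FPKM.

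The mitotic kinesins rose together in si-E2F1 cells, while most transport kinesins did not pass the threshold. Against Control cells, 11 of 12 mitotic kinesins rose and none fell, where 37.8% of all genes tested passed the same threshold (20.5% of all genes tested upward and 17.3% downward). All 12, KIF22 included, had their si-E2F1 libraries above their Control libraries without overlap. Of all genes tested, 50.3% did not overlap between these groups, 27.7% with si-E2F1 higher. Of 11 transport kinesins 2 rose, 1 fell and 8 were not called, and of 8 other kinesins 1 rose. Both classes thus had a smaller share called than all genes tested. The median fitted change was 0.38 on the log2 scale for mitotic, 0.07 for transport and 0.08 for other kinesins, and 0.03 for all genes tested. These are bulk libraries, in which a larger share of cells in mitosis cannot be told apart from more mRNA per cell.

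In si-E2F3 cells the pattern by class was another. Against the same Control libraries, 1 of 12 mitotic kinesins fell (KIFC1) and none rose, while 5 of 11 transport kinesins rose and none fell. Of 8 other kinesins 1 rose and 3 fell. Among those that fell was KIF2A, which also acts at spindle poles and was placed in this class for its mixed roles. The mitotic count depends on that placement. The threshold was passed by 37.6% of all genes tested, 21.1% upward and 16.4% downward. That split depended on the scaling, with 2913 higher and 2266 lower as deposited, and 2258 higher and 2792 lower after scaling by the median ratio of the libraries (RLE). Groups did not overlap for 2 mitotic kinesins, both lower (KIFC1 and KIF4A), and for 6 transport kinesins, all higher, where 49.5% of all genes did not overlap, 28.6% higher and 21% lower. The median fitted change was -0.01 for mitotic, 0.24 for transport and -0.17 for other kinesins, and 0.04 for all genes tested. The gap between the mitotic and transport medians, -0.26 among members past the filter, was -0.055 with no filter on low values. Both comparisons use the same 3 Control libraries, so a departure of these libraries would move both.

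Set directly against each other, all 12 mitotic kinesins were lower in si-E2F3 than in si-E2F1 cells, where 45.5% of all genes tested differed, 22% downward. Their libraries did not overlap for 11 of 12, KIF22 being the exception, where 53.8% of all genes tested did not overlap, 25.9% lower and 27.9% higher. Of the transport kinesins 3 were higher and 1 lower (2 and 2 without overlap), and of the other kinesins 3 were lower. The KIF20B call (limma adjusted p = 0.046) was lost on leaving out any single library other than si-E2F3 replicate 1 (limma adjusted p 0.051 to 0.14). The median was -0.38 for mitotic, 0.03 for transport and -0.23 for other kinesins, and 0.02 for all genes tested.

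**Figure D2:**
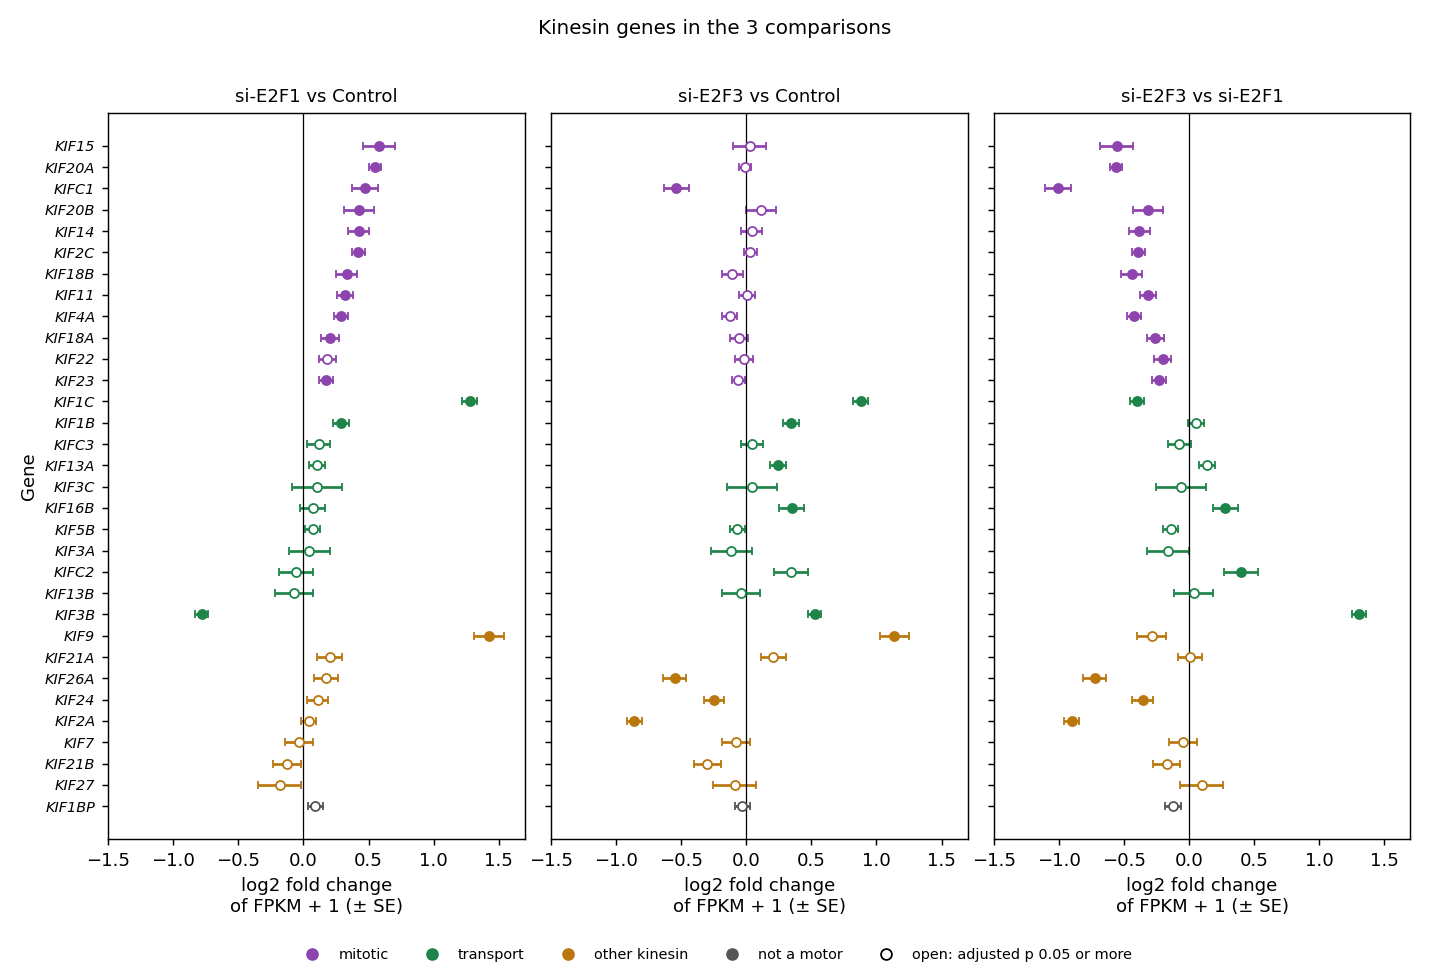
Fitted log2 fold change of each tested kinesin with its standard error, by class, for si-E2F1 against Control, si-E2F3 against Control and si-E2F3 against si-E2F1. Against Control, the mitotic kinesins lie above 0 in si-E2F1 cells and near 0 in si-E2F3 cells apart from KIFC1. KIF3B lies below 0 in si-E2F1 cells and above 0 in si-E2F3 cells against Control.

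Summed over the class, mitotic kinesins reached 384, 389 and 393 FPKM in si-E2F1 libraries, 304, 298 and 289 FPKM in si-E2F3 libraries and 309, 303 and 305 FPKM in Control libraries. The si-E2F1 libraries stood above all others, and those of the other two groups overlapped. Transport kinesins summed to 199 ± 5 FPKM in si-E2F1 cells, 202 ± 5 FPKM in si-E2F3 cells and 158 ± 3 FPKM in Control cells (SD, n = 3 each). Without KIF1C the transport sum was 129 ± 3 FPKM in si-E2F1 cells, 149 ± 7 FPKM in si-E2F3 cells and 129 ± 3 FPKM in Control cells (SD, n = 3 each). On balance the higher transport sum of si-E2F1 cells thus matched the rise of KIF1C, while that of si-E2F3 cells was in part spread over other members. In si-E2F1 cells a fall of KIF3B, from a mean of 21.0 to 11.8 FPKM, was offset by smaller rises. Among these was KIF1B, from 15.2 FPKM in Control to 18.8 FPKM in si-E2F1 cells. In si-E2F3 cells KIF3B instead averaged 30.6 FPKM.

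**Figure D3:**
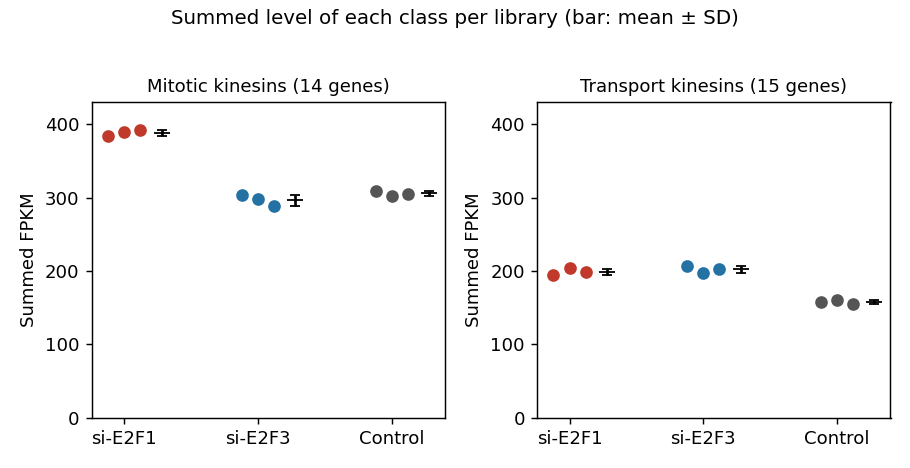
Summed FPKM of the 14 mitotic and of the 15 transport kinesins in each library, with the mean and SD of 3 libraries per group. Mitotic sums lie between 384 and 393 FPKM in si-E2F1 libraries, above the si-E2F3 and Control libraries, and transport sums are higher in both siRNA groups than in Control.

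Among kinesins that build and focus the spindle, KIF15 had the largest rise of the mitotic class in si-E2F1 cells. KIF15, which holds the spindle poles apart together with KIF11, had 14.6, 14.01 and 16.3 FPKM in si-E2F1 libraries, 11.5, 8.25 and 10.1 FPKM in si-E2F3 libraries and 9.09, 11.4 and 8.71 FPKM in Control libraries. Every si-E2F1 library was above every other, and the si-E2F3 and Control libraries overlapped. The change against Control was 0.58 ± 0.12 on the log2 scale in si-E2F1 cells (SE, limma adjusted p = 0.0047). KIF11, the motor that slides spindle microtubules apart and the target of Eg5 inhibitors, had 36.4, 33.1 and 34.7 FPKM in si-E2F1 libraries, 29.5, 26.4 and 27.4 FPKM in si-E2F3 libraries and 27.96, 29.01 and 25.9 FPKM in Control libraries. Only the si-E2F1 libraries stood apart, by 0.32 ± 0.06 on the log2 scale (limma adjusted p = 0.0028).

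KIFC1 was the only mitotic kinesin to rise in si-E2F1 cells and fall in si-E2F3 cells. KIFC1 walks toward the minus ends of microtubules, focuses spindle poles and clusters extra centrosomes. It had 22.9, 22.8 and 21.5 FPKM in si-E2F1 libraries, 10.7, 11.5 and 9.72 FPKM in si-E2F3 libraries and 16.3, 13.5 and 18.0 FPKM in Control libraries. The groups did not overlap, and the Control libraries lay between the others with the widest spread. Against Control the change was 0.47 ± 0.10 on the log2 scale in si-E2F1 cells (limma adjusted p = 0.0041) and -0.54 ± 0.10 in si-E2F3 cells (limma adjusted p = 0.0022). Between si-E2F3 and si-E2F1 cells it was -1.01 ± 0.10 (limma adjusted p = 2.9e-05). The window of KIFC1 holds a CHR word and 2 CCAAT matches, as does that of KIF18B. KIF18B did not pass the threshold in si-E2F3 cells, and a link between these words and the changes was not tested.

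The kinesins of the midzone and of cell division also rose in si-E2F1 cells. KIF20A, which moves the chromosomal passenger complex to the midzone, had 43.0, 43.1 and 44.2 FPKM in si-E2F1 libraries, 28.98, 29.9 and 28.7 FPKM in si-E2F3 libraries and 28.3, 29.3 and 30.6 FPKM in Control libraries. Its si-E2F1 libraries were 1.48 times the Control mean, 0.55 ± 0.05 on the log2 scale (limma adjusted p = 1.4e-05), and its si-E2F3 and Control libraries overlapped. KIF20A shares 132 exon bases with BRD8 on the other strand, which averaged 47.2 FPKM in si-E2F1 cells, 32.9 FPKM in si-E2F3 cells and 36.6 FPKM in Control cells. It also shares 68 exon bases with CDC23 on that strand. CDC23 averaged 35.4 FPKM in si-E2F1 cells, 33.7 FPKM in si-E2F3 cells and 39.7 FPKM in Control cells. Whether the counting used strand is not given in the sources used here, so the part of BRD8 and CDC23 reads in the KIF20A value was not tested.

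KIF14, which brings citron kinase to the midbody, had 12.2, 12.1 and 11.95 FPKM in si-E2F1 libraries, 9.66, 8.03 and 9.55 FPKM in si-E2F3 libraries and 8.94, 9.29 and 8.08 FPKM in Control libraries. KIF4A, a chromosome-bound motor that works with PRC1 to set the length of the midzone, had 31.99, 30.7 and 33.4 FPKM in si-E2F1 libraries, 24.6, 22.7 and 23.9 FPKM in si-E2F3 libraries and 25.3, 27.1 and 25.6 FPKM in Control libraries. Both were highest in si-E2F1 cells, by 0.42 ± 0.08 for KIF14 and 0.29 ± 0.05 for KIF4A against Control (log2, limma adjusted p = 0.0025 and 0.0020). KIF4A was also lower in every si-E2F3 library than in every Control library, by -0.13 ± 0.05, which missed the threshold (limma adjusted p = 0.090) and passed it under RLE scaling (limma adjusted p = 0.030). KIF4A shares 77 exon bases with PDZD11 on the other strand. PDZD11 averaged 84.8 FPKM in si-E2F1 cells, 97.3 FPKM in si-E2F3 cells and 92.3 FPKM in Control cells. The part of PDZD11 reads in the KIF4A value was not tested.

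KIF23, the motor of the centralspindlin complex, had 47.1, 46.2 and 47.2 FPKM in si-E2F1 libraries, 42.8, 38.6 and 38.1 FPKM in si-E2F3 libraries and 42.5, 39.7 and 42.2 FPKM in Control libraries. KIF20B, another cytokinesis motor, had 18.9, 19.0 and 19.2 FPKM in si-E2F1 libraries, 18.4, 12.4 and 14.9 FPKM in si-E2F3 libraries and 13.4, 15.1 and 13.2 FPKM in Control libraries. For KIF20B the si-E2F3 libraries spread widest, the first lying close to the si-E2F1 libraries. Against Control, KIF23 rose by 0.17 ± 0.05 (limma adjusted p = 0.028) and KIF20B by 0.43 ± 0.12 (limma adjusted p = 0.015) on the log2 scale. The KIF23 call was lost on leaving out Control replicate 2 or 3 or any si-E2F1 library (limma adjusted p up to 0.096), and the KIF20B call on leaving out Control replicate 3 (limma adjusted p = 0.051).

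Of the kinesins that act on microtubule ends and on chromosomes, KIF2C, KIF18A and KIF18B rose in si-E2F1 cells and KIF22 did not pass the threshold. KIF2C, which takes microtubule ends apart and corrects faulty attachments at kinetochores, had 55.5, 55.3 and 55.3 FPKM in si-E2F1 libraries, 40.4, 44.1 and 41.7 FPKM in si-E2F3 libraries and 43.2, 40.0 and 40.2 FPKM in Control libraries. It rose by 0.42 ± 0.05 on the log2 scale in si-E2F1 cells (limma adjusted p = 1.0e-04), with the si-E2F3 and Control libraries overlapping. Its window holds neither a CHR word nor CCAAT, and a link between these words and the change was not tested.

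KIF18B, which limits astral microtubules, had 24.7, 29.1 and 26.9 FPKM in si-E2F1 libraries, 19.3, 21.6 and 17.9 FPKM in si-E2F3 libraries and 21.7, 20.0 and 21.7 FPKM in Control libraries. KIF18A, which damps the oscillation of chromosomes on the metaphase plate, had 16.6, 17.5 and 17.1 FPKM in si-E2F1 libraries, 15.5, 13.1 and 13.8 FPKM in si-E2F3 libraries and 15.1, 14.7 and 14.2 FPKM in Control libraries. Both had their si-E2F1 libraries above all others, by 0.33 ± 0.08 for KIF18B and 0.20 ± 0.07 for KIF18A against Control (log2, limma adjusted p = 0.0090 and 0.040). The KIF18A call was lost on leaving out any si-E2F1 or Control library in turn, or si-E2F3 replicate 3 (limma adjusted p 0.053 to 0.12).

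KIF22, which pushes chromosome arms away from the poles and had the highest mean of the mitotic class, had 60.4, 65.9 and 64.9 FPKM in si-E2F1 libraries, 52.1, 61.4 and 52.7 FPKM in si-E2F3 libraries and 57.4, 53.7 and 56.8 FPKM in Control libraries. Its si-E2F1 and Control libraries did not overlap, but the difference of 0.18 ± 0.07 missed the threshold (limma adjusted p = 0.053) and passed it under 5 of 18 alternatives. KIF22 was lower in si-E2F3 than in si-E2F1 cells by -0.20 ± 0.07 (limma adjusted p = 0.032), a call lost on leaving out si-E2F1 replicate 2 or 3 or si-E2F3 replicate 1 or 3 (limma adjusted p 0.085 to 0.11).

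**Figure D4:**
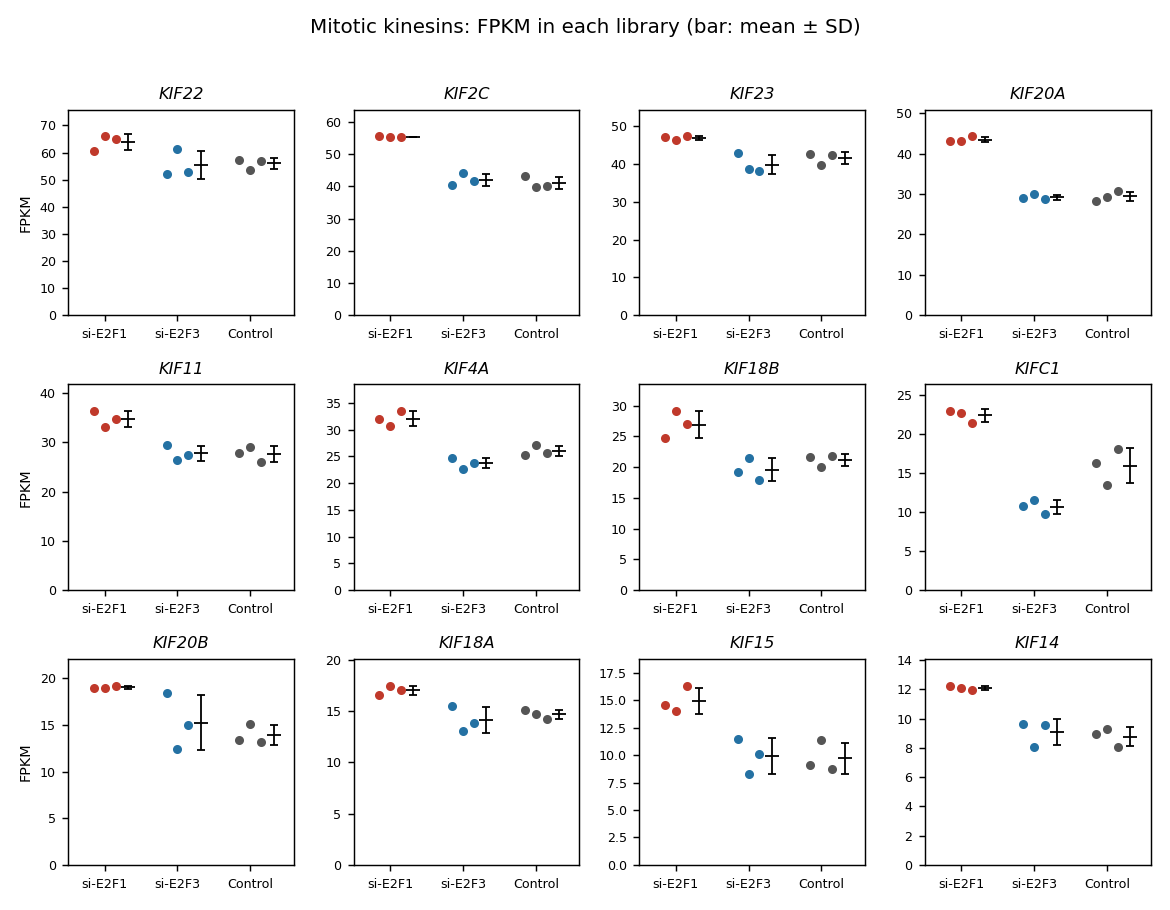
FPKM of the 12 tested mitotic kinesins in each library, with the mean and SD of 3 libraries per group, each panel on its own axis from 0. The si-E2F1 libraries lie above the Control libraries in all 12 panels, and KIFC1 is the one panel where the si-E2F3 libraries lie well below the Control libraries.

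Among the transport kinesins, KIF3B moved in opposite directions with the 2 siRNAs. KIF3B pairs with KIF3A and the adaptor KIFAP3 in the heterotrimeric motor that drives intraflagellar transport in cilia and carries vesicles elsewhere. It had 11.8, 11.7 and 11.7 FPKM in si-E2F1 libraries, 31.8, 29.6 and 30.3 FPKM in si-E2F3 libraries and 20.5, 21.8 and 20.5 FPKM in Control libraries. The groups were far apart, with Control between. The change against Control was -0.78 ± 0.05 on the log2 scale in si-E2F1 cells (limma adjusted p = 3.1e-06) and 0.52 ± 0.05 in si-E2F3 cells (limma adjusted p = 4.2e-05), and si-E2F3 cells had 2.598 times the mean level of si-E2F1 cells. KIF3A did not pass the threshold against Control, with 11.2, 13.2 and 9.88 FPKM in si-E2F1 libraries, 8.97, 8.41 and 13.4 FPKM in si-E2F3 libraries and 11.9, 11.2 and 9.90 FPKM in Control libraries. KIF3C, which can take the place of KIF3B, averaged 3.10 FPKM in si-E2F1 cells, 3.01 FPKM in si-E2F3 cells and 2.82 FPKM in Control cells, and its groups overlapped.

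KIF1C rose in both siRNA groups and was the transport kinesin with the highest mean. KIF1C carries integrin vesicles and mRNA to cell protrusions. It had 64.8, 72.4 and 73.5 FPKM in si-E2F1 libraries, 51.8, 55.4 and 51.7 FPKM in si-E2F3 libraries and 27.8, 28.5 and 28.8 FPKM in Control libraries. The 3 groups did not overlap, and the ratio to the Control mean was 2.48 in si-E2F1 cells and 1.87 in si-E2F3 cells. The changes were 1.28 ± 0.06 and 0.88 ± 0.06 on the log2 scale (limma adjusted p = 2.7e-07 and 3.1e-06), and si-E2F3 cells were lower than si-E2F1 cells by -0.40 ± 0.06 (limma adjusted p = 3.0e-04). The KIF1C window held no match to the words searched.

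KIF1B, which carries mitochondria and synaptic vesicle precursors, had 18.2, 19.4 and 18.8 FPKM in si-E2F1 libraries, 20.9, 18.4 and 19.3 FPKM in si-E2F3 libraries and 14.8, 15.3 and 15.4 FPKM in Control libraries. Both siRNA groups lay above Control and overlapped with each other, with changes of 0.29 ± 0.06 in si-E2F1 cells and 0.34 ± 0.06 in si-E2F3 cells (log2, limma adjusted p = 0.0034 and 0.0014).

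Endosomal kinesins passed the threshold against Control in si-E2F3 cells. KIF13A, which moves recycling endosomes and melanosome cargo, had 20.5, 22.1 and 20.9 FPKM in si-E2F1 libraries, 24.9, 21.5 and 24.0 FPKM in si-E2F3 libraries and 19.4, 20.2 and 19.2 FPKM in Control libraries. KIF16B, a motor of early endosomes, had 5.20, 4.90 and 5.36 FPKM in si-E2F1 libraries, 6.03, 6.08 and 7.35 FPKM in si-E2F3 libraries and 4.52, 5.41 and 4.66 FPKM in Control libraries. In si-E2F3 libraries both were above all Control libraries, by 0.24 ± 0.06 for KIF13A and 0.35 ± 0.10 for KIF16B (log2, limma adjusted p = 0.013 and 0.017). The KIF16B call was lost without Control replicate 1 or 3 or si-E2F3 replicate 3 (limma adjusted p 0.055 to 0.061). The direct difference between si-E2F3 and si-E2F1 cells was 0.14 ± 0.06 for KIF13A (limma adjusted p = 0.095) and 0.28 ± 0.10 for KIF16B (limma adjusted p = 0.038), with the KIF16B call lost without any si-E2F1 library or without si-E2F3 replicate 3 (limma adjusted p 0.059 to 0.13).

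KIFC2, a minus-end motor known from neurons, had 7.02, 5.61 and 8.02 FPKM in si-E2F1 libraries, 9.76, 10.6 and 7.79 FPKM in si-E2F3 libraries and 7.09, 7.22 and 7.08 FPKM in Control libraries. The si-E2F3 libraries were above Control by 0.34 ± 0.13, which missed the threshold (limma adjusted p = 0.060, and 0.022 without si-E2F3 replicate 3), and above si-E2F1 by 0.40 ± 0.13 (limma adjusted p = 0.028) with overlapping libraries. That last call was lost without si-E2F1 replicate 1 or 2 or si-E2F3 replicate 1 or 2 (limma adjusted p 0.055 to 0.098). KIF5B, the conventional kinesin heavy chain found in most tissues, had 28.9, 28.1 and 27.8 FPKM in si-E2F1 libraries, 27.4, 24.0 and 25.3 FPKM in si-E2F3 libraries and 26.5, 28.2 and 25.9 FPKM in Control libraries. It passed the threshold in no comparison as deposited, and between si-E2F3 and si-E2F1 cells it passed under RLE or upper-quartile scaling or without si-E2F3 replicate 1 (limma adjusted p 0.029 to 0.032). KIF13B and KIFC3, a minus-end motor of epithelial junctions, did not pass it either, with changes between -0.07 and 0.12 on the log2 scale.

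Among kinesins of other roles, KIF9 rose in both siRNA groups and KIF2A fell in si-E2F3 cells. KIF9, a motor of motile cilia and flagella, had 8.80, 10.1 and 8.06 FPKM in si-E2F1 libraries, 7.83, 6.96 and 6.72 FPKM in si-E2F3 libraries and 3.10, 2.25 and 2.83 FPKM in Control libraries. Both siRNA groups were above Control without overlap, with si-E2F1 cells at 3.30 and si-E2F3 cells at 2.63 times its mean, with changes of 1.42 ± 0.11 in si-E2F1 cells and 1.14 ± 0.11 in si-E2F3 cells (log2, limma adjusted p = 9.6e-06 and 4.7e-05). The direct difference, -0.29 ± 0.11 with si-E2F3 lower, missed the threshold (limma adjusted p = 0.061) and passed it under 4 of 18 alternatives, among them leaving out Control replicate 2 or si-E2F1 replicate 3 (limma adjusted p = 0.040 and 0.047). KIF9 shares 870 exon bases with its antisense gene KIF9-AS1, which averaged 0.20 FPKM in si-E2F1 cells, 0.46 FPKM in si-E2F3 cells and 0.28 FPKM in Control cells, and 178 with KLHL18, which averaged 19.2 FPKM in si-E2F1 cells, 21.4 FPKM in si-E2F3 cells and 18.3 FPKM in Control cells. The part of KLHL18 reads in the KIF9 value was not tested.

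KIF2A, which takes microtubules apart at spindle poles and in growing neurites, had 38.4, 36.1 and 36.8 FPKM in si-E2F1 libraries, 20.1, 18.3 and 19.8 FPKM in si-E2F3 libraries and 36.7, 37.8 and 33.6 FPKM in Control libraries. Only the si-E2F3 libraries stood apart, with a fold of 0.54 against the Control mean, or -0.86 ± 0.06 on the log2 scale (limma adjusted p = 4.6e-06). Its close relative KIF2C changed by 0.03 ± 0.05 in si-E2F3 cells (limma adjusted p = 0.63). KIF2A shares 428 exon bases with IPO11 on the same strand, which averaged 14.98 FPKM in si-E2F1 cells, 13.7 FPKM in si-E2F3 cells and 11.9 FPKM in Control cells.

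KIF26A, an atypical kinesin that binds microtubules without walking and dampens GDNF-RET signalling in mice, had 8.67, 8.66 and 7.46 FPKM in si-E2F1 libraries, 4.21, 5.14 and 4.49 FPKM in si-E2F3 libraries and 7.11, 6.92 and 7.57 FPKM in Control libraries. KIF24, which restrains the outgrowth of primary cilia, had 5.70, 5.20 and 5.51 FPKM in si-E2F1 libraries, 4.02, 3.86 and 4.29 FPKM in si-E2F3 libraries and 5.23, 4.70 and 5.07 FPKM in Control libraries. Both fell in si-E2F3 cells without overlap, by 0.55 ± 0.09 for KIF26A and 0.25 ± 0.08 for KIF24 on the log2 scale (limma adjusted p = 0.0010 and 0.032). The KIF24 call was lost without Control replicate 1 or 3 or si-E2F3 replicate 1 or 2 (limma adjusted p 0.071 to 0.10), and KIF24 shares 143 exon bases with UBAP1, a gene of 42.2 FPKM in si-E2F3 cells and 35.9 FPKM in Control cells.

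KIF21A, a regulator of microtubule growth, did not pass the threshold, though it did without si-E2F1 replicate 2 in si-E2F1 cells (limma adjusted p = 0.036) and without si-E2F3 replicate 2 in si-E2F3 cells (limma adjusted p = 0.032). KIF21B, its close relative, missed it in si-E2F3 cells with 0.88, 1.0 and 0.88 FPKM, against 1.39, 1.31 and 1.38 FPKM in Control libraries (limma adjusted p = 0.051), and passed it under RLE scaling (limma adjusted p = 0.035). KIF7, a regulator of Hedgehog signalling in the cilium, and its relative KIF27 had overlapping groups in all 3 comparisons. KIF7, at 2.99 FPKM in Control cells, shares 589 exon bases with TICRR on the other strand. TICRR averaged 11.6 FPKM in si-E2F1 cells, 8.86 FPKM in si-E2F3 cells and 10.4 FPKM in Control cells. The part of TICRR reads in the KIF7 value was not tested. KIF1BP, which inhibits several kinesins, had 24.9, 23.0 and 23.7 FPKM in si-E2F1 libraries, 22.7, 22.3 and 20.6 FPKM in si-E2F3 libraries and 23.5, 22.0 and 21.6 FPKM in Control libraries. Its changes against Control were 0.09 ± 0.06 in si-E2F1 cells (limma adjusted p = 0.25) and -0.03 ± 0.06 in si-E2F3 cells (limma adjusted p = 0.71).

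**Figure D5:**
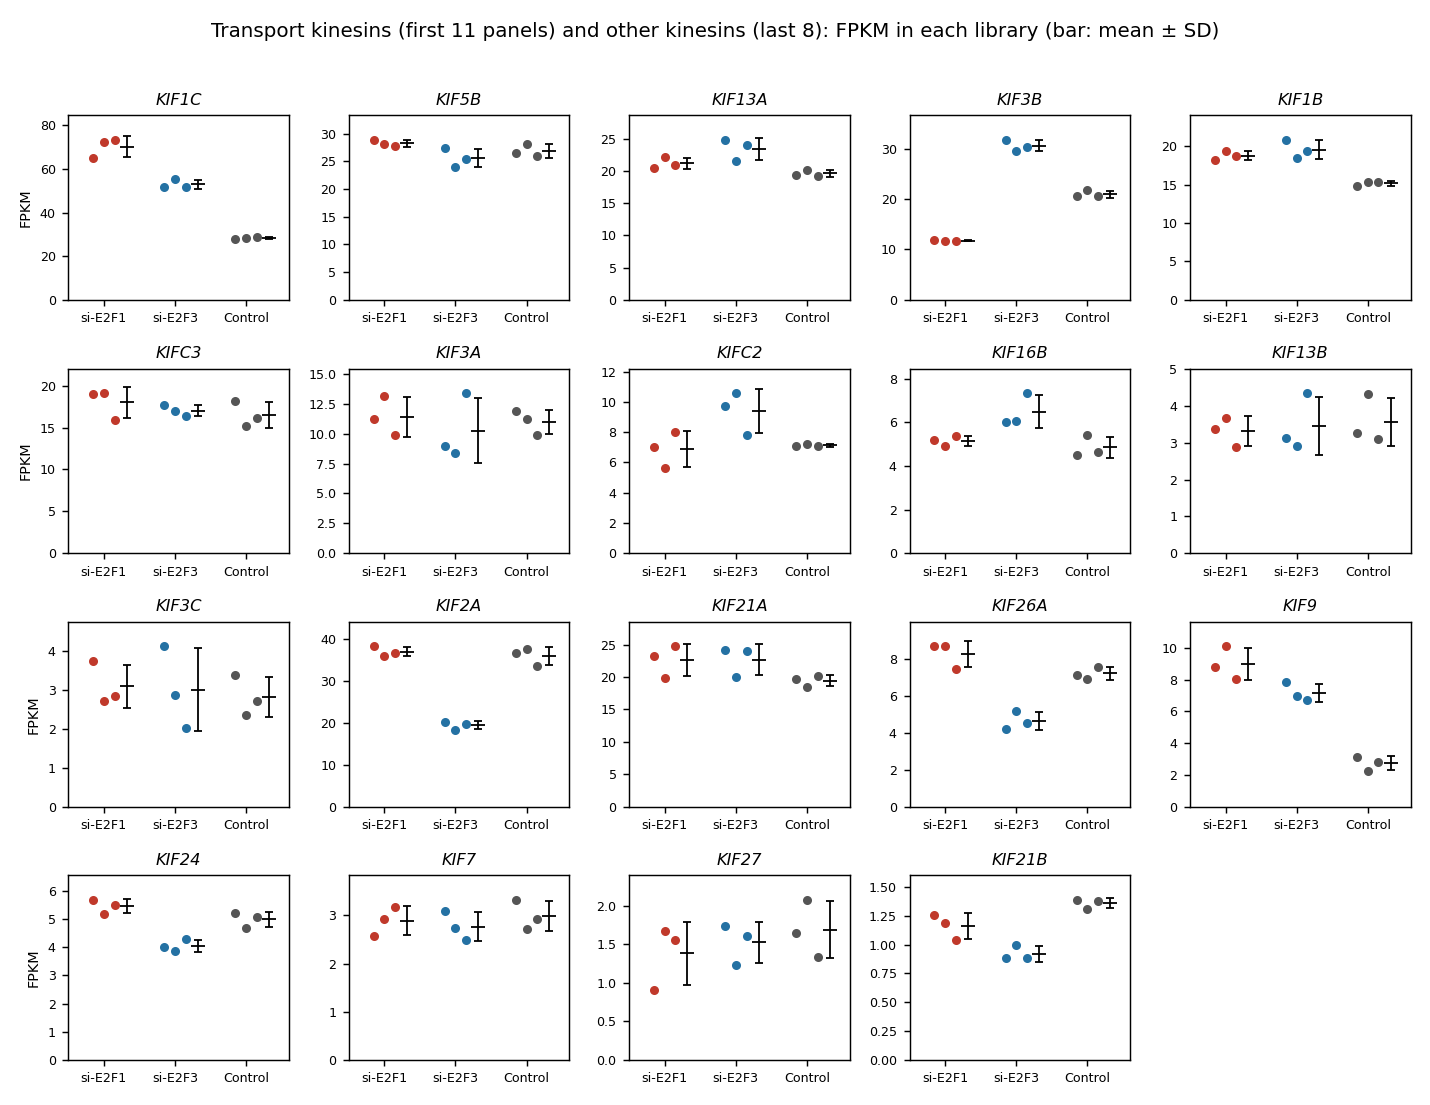
FPKM of transport and other kinesins in each library, with the mean and SD of 3 libraries per group, each panel on its own axis from 0. KIF3B is lowest in si-E2F1 and highest in si-E2F3 libraries, KIF1C and KIF9 are higher in both siRNA groups than in Control, and KIF2A is low in si-E2F3 libraries.

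Among 21 partners of the mitotic kinesins, 15 rose and 1 fell in si-E2F1 cells against Control, with a median of 0.44 on the log2 scale, where 20.5% of all genes tested rose and 17.3% fell. In si-E2F3 cells 3 rose and 2 fell, with a median of 0.04, where 21.1% of all genes tested rose and 16.4% fell. PRC1, the midzone crosslinker, averaged 134 ± 4 FPKM in si-E2F1 cells, 102 ± 6 FPKM in si-E2F3 cells and 80.6 ± 2.1 FPKM in Control cells (SD, n = 3 each), and rose in both siRNA groups. BIRC5, a subunit of the chromosomal passenger complex that KIF20A moves, averaged 91.5 ± 9.1 FPKM in si-E2F1 cells, 62.4 ± 2.5 FPKM in si-E2F3 cells and 50.2 ± 3.2 FPKM in Control cells (SD, n = 3 each), and also rose in both. INCENP, the scaffold of that complex, had 61.6 ± 1.1 FPKM in si-E2F1 cells against 34.1 ± 1.8 FPKM in Control cells (SD, n = 3 each, limma change 0.84 on the log2 scale), and AURKB, its kinase, fell in si-E2F3 cells by 0.22 on the log2 scale. CENPE, a kinetochore kinesin whose symbol falls outside the naming rule, averaged 7.92 FPKM in si-E2F1 cells, 5.07 FPKM in si-E2F3 cells and 7.22 FPKM in Control cells, and did not pass the threshold against Control in either (limma adjusted p = 0.58 and 0.13).

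Of 17 markers of G2 and mitosis that are not kinesins, 15 rose and none fell in si-E2F1 cells (median 0.50 on the log2 scale), where 20.5% of all genes tested rose. In si-E2F3 cells 2 rose and 4 fell (median -0.04), a share near the 37.6% of all genes tested that were called. Their sum was 1466 to 1488 FPKM in si-E2F1 libraries, 1015 to 1036 FPKM in si-E2F3 libraries and 1099 to 1108 FPKM in Control libraries. The marker sums of si-E2F3 libraries thus lay below those of Control, while 11 of the 17 markers were not called. Much of that gap in the sums lay in MYBL2, at 106 ± 2 FPKM in si-E2F3 cells against 161 ± 5 FPKM in Control cells. CENPF went the other way, at 31.7 ± 3.3 against 20.4 ± 2.4 FPKM (SD, n = 3 each). The sums therefore do not show a general fall of these markers. The mitotic kinesin sums averaged 297 ± 8 FPKM in si-E2F3 cells and 306 ± 3 FPKM in Control cells (SD, n = 3 each). They overlapped narrowly, with the highest si-E2F3 sum at 303.5 FPKM and the lowest Control sum at 302.9 FPKM. Of 17 markers of G1/S and S phase, 8 rose and 4 fell in si-E2F1 cells (median 0.22), where 20.5% of all genes tested rose and 17.3% fell. In si-E2F3 cells 1 rose and 8 fell (median -0.19), where 21.1% of all genes tested rose and 16.4% fell. The part of a shifted cell cycle in the mitotic kinesin values was not tested.

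Partners and tracks of transport motors were called in both directions. Of 19 tested transport partners 3 rose and 4 fell in si-E2F1 cells, and 4 rose and 3 fell in si-E2F3 cells, shares near the 37.8% and 37.6% of all genes tested that were called in these comparisons, against which the counts of dynein, dynactin and tubulin genes below are also to be read. FEZ1, an adaptor of conventional kinesin, averaged 5.30 ± 0.38 FPKM in si-E2F1 cells against 8.08 ± 0.96 FPKM in Control cells, and the mitochondrial adaptor TRAK2 averaged 11.2 ± 0.2 FPKM in si-E2F3 cells against 8.19 ± 0.15 FPKM in Control cells (SD, n = 3 each). MAPK8IP3, a scaffold that links kinesin and dynein, fell by 0.43 on the log2 scale in si-E2F1 cells. Of 23 tested genes of dynein and dynactin, the motor that walks the other way, 6 rose and 4 fell in si-E2F1 cells, and 4 rose and 4 fell in si-E2F3 cells. Of these BICD2, which joins dynein to its cargo, averaged 11.2 ± 0.3 FPKM in si-E2F1 cells, 14.8 ± 0.5 FPKM in si-E2F3 cells and 5.19 ± 0.08 FPKM in Control cells (SD, n = 3 each), and rose in both. Of 13 tested tubulins 5 rose and 5 fell in si-E2F1 cells, and 4 rose and 4 fell in si-E2F3 cells, larger shares than among all genes tested. Tubulin sums were 4648 to 4855 FPKM in si-E2F1 libraries, 3558 to 3744 FPKM in si-E2F3 libraries and 3904 to 4156 FPKM in Control libraries. The largest called change in si-E2F1 cells was that of TUBA1C, at 1063.5 ± 20.8 FPKM against 683.0 ± 27.7 FPKM in Control cells (SD, n = 3 each). TUBG1, the gamma-tubulin that nucleates microtubules at centrosomes, averaged 48.7 ± 6.3 FPKM in si-E2F3 cells against 93.5 ± 5.0 FPKM in Control cells (SD, n = 3 each), and reads of near-identical tubulin copies may have been split between them.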

How the data were processed

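The deposited files hold 1 table per library, with FPKM computed by the authors per gene and rounded to 2 decimals. Per the submitters' processing notes, tools included Trimmomatic, TopHat, HISAT2, HTSeq and DESeq with the GRCh38 build, with no versions; strand use and read numbers were not stated. RNA was total RNA isolated with a column kit, per the labels. Ensembl identifiers were matched to GENCODE 29, for 58216 of 58381. Text entries with no value (12) were left out.

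From the deposited FPKM, log2(FPKM + 1) was fitted with limma 3.58.1 in R 4.3.3 (trended variance, not robust, all 9 libraries, 1 mean per group, no block), over the 13777 genes that reached 1 FPKM in 3 or more libraries. Adjusted p-values are Benjamini-Hochberg over all of these, at 0.05, two-sided. FPKM are not counts, so no count test was run. Relative depth came from the steps between low FPKM values. Pearson correlations between libraries were 0.968 to 0.990.

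Every member could be named, with library values for members called against Control and for the highest of each class, and partner genes by largest change among those called. The members and lists were chosen with earlier results of these data known, classes were assigned from textbook roles, and some members outside that rule (such as KIF3A, KIFC2 and KIF21B) were given values after these were seen. Promoter windows are from RefSeq. Alternatives were RLE and upper-quartile scaling, no filter, filters of 5 FPKM or on the mean, a pseudocount of 0.1, only the libraries compared, a replicate block, a threshold of 0.01, and leaving out each of 9 libraries.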

Additional observations from a re-analysis of the deposited data

Results flagged for a closer look

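Kinesin genes were flagged where they passed the threshold in opposite directions in the 2 siRNA groups against the same Control libraries. The direct difference between si-E2F3 and si-E2F1 cells also had to pass it, and KIF3B and KIFC1 met both conditions. That difference spans the 2 opposite changes, so its passing is no separate evidence. For KIF3B that difference was 1.31 ± 0.05 on the log2 scale (SE, limma adjusted p = 9.5e-08), higher in si-E2F3 cells in 3 of 3 libraries. For KIFC1 it was -1.01 ± 0.10 (SE, limma adjusted p = 2.9e-05), lower in si-E2F3 cells in 3 of 3 libraries. Both were called in the same direction under all 18 alternatives, with a range of 1.27 to 1.37 for KIF3B.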

How the results depend on the processing

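Of 44 calls of single kinesins over the 3 comparisons, 33 were kept under all 18 alternatives, 11 were lost under at least 1 and none changed direction. Lost calls were KIF18A, KIF20B and KIF23 in si-E2F1 against Control, KIF13A, KIF16B and KIF24 in si-E2F3 against Control, and KIF16B, KIF18A, KIF20B, KIF22 and KIFC2 in si-E2F3 against si-E2F1. KIF13A was lost at the threshold of 0.01 alone. The direct KIF20B difference lost its call under 12 alternatives, among them the absence of si-E2F3 replicate 2 (adjusted p = 0.14).

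The mitotic calls of si-E2F1 against Control numbered 8 to 12 over the 9 libraries left out in turn, and 8 to 12 under the other alternatives. In si-E2F3 against Control, RLE scaling gave 2 mitotic calls, with KIF4A added. At the threshold of 0.01, 3244 genes and 3 transport kinesins were called. The mitotic median minus the transport median was -0.26 in that comparison, -0.055 with no filter and -0.36 with a filter of 5 FPKM, as members with low values enter the median without a filter and leave it under the stricter one. In si-E2F3 against si-E2F1, transport calls fell to 2 with no filter, with the replicate block and at the threshold of 0.01, and were 2 to 4 when libraries were left out in turn (2 without si-E2F1 replicate 1 or 2), and the difference of medians was -0.46 to -0.35.

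Same-numbered libraries deviated together with correlations of -0.11 to 0.11, over 0.1 in 1 of 9 pairs, so the numbers were not taken to pair samples. With the replicate block, 10 mitotic kinesins were called in si-E2F1 against Control, KIF18A had an adjusted p of 0.058, and KIF21A passed the threshold against Control in si-E2F1 cells (adjusted p = 0.031) and in si-E2F3 cells (adjusted p = 0.027). Scaling moved the median of all genes by at most 0.05 on the log2 scale. With 3 libraries per group and FPKM rounded to 2 decimals, differences of KIF21B, KIF27 and other members near 1 FPKM are measured least well.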
